A study of Mus musculus with 11 samples.

Results

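The metallothioneins Mt1 and Mt2 and the zinc transporters Slc39a14, Slc30a1 and Slc39a4 were followed in mouse liver. Every probe set whose platform gene symbol was one of these 5 names was taken, which gave 7 probe sets of 22690 on the array. They stand for 5 of the 12393 genes named on the array. There were 2 for Mt1, 1 for Mt2, 2 for Slc39a14, 1 for Slc30a1 and 1 for Slc39a4. Each array was hybridised with liver RNA of one male mouse on a mixed genetic background, and 11 mice fell into 3 groups. Akt1 double transgenic (DTG) mice on a high fat diet, in which the labels mark muscle hypertrophy, had 4 arrays. Wild types fed the same high fat diet had 4 arrays, and wild types fed the control (normal) diet had 3. All 3 groups received doxycycline for 3 weeks. Doxycycline switches on inducible transgenes, and as a tetracycline it also binds divalent metal ions, so an effect of the drug shared by all mice cannot be seen here. The labels name neither the promoter of the transgene nor the age of the mice, and no transgenic mice on the control diet were analysed here.

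Metallothioneins are small cysteine-rich proteins that bind zinc and copper in the cytosol, and the liver is one of their main sites of synthesis. Their genes are known to respond to zinc through the metal-sensing transcription factor MTF1, and also to glucocorticoids and to interleukin-6. Zinc enters the cytosol through ZIP (Slc39) transporters and leaves it through ZnT (Slc30) transporters. Slc39a14 encodes ZIP14, the hepatocyte importer that is induced in inflammation. Slc30a1 encodes ZnT1, the plasma membrane exporter, itself a target of MTF1. Slc39a4 encodes ZIP4, known mainly for zinc uptake in the intestine.

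Stretches upstream of a start site are shown for the 3 members that RefSeq's promoter table (GRCm38.p6) holds, because the metal response element, to which MTF1 binds, is the feature by which metallothionein genes sense zinc. Each is the 250 bases before the start that the promoter table uses, on the plus strand, 5′ to 3′. RefSeq's gene record, which covers every transcript model, begins at the same base for Mt2 but 206 bases earlier for Mt1 and 84 bases earlier for Slc30a1. The stretches of Mt1 and Slc30a1 therefore lie partly within their gene records. Capitals mark matches, on either strand, to the core of the element, searched as TGCACNC and TGCGCNC. The Mt2 stretch lies at chr8:94172368-94172617, that of Mt1 at chr8:94178839-94179088 and that of Slc30a1 at chr1:191906531-191906780. In RefSeq, Mt2 and Mt1 are neighbouring genes on chromosome 8.
Mt2: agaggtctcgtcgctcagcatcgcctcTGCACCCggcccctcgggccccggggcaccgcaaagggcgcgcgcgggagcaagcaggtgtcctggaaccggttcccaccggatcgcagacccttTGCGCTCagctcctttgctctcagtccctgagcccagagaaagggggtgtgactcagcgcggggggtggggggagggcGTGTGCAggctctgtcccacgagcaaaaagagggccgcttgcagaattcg
Mt1: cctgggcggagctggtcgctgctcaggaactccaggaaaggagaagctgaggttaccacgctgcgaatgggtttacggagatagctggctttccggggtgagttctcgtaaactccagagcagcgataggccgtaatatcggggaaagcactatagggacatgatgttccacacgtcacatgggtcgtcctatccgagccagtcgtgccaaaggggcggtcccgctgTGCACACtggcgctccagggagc
Slc30a1: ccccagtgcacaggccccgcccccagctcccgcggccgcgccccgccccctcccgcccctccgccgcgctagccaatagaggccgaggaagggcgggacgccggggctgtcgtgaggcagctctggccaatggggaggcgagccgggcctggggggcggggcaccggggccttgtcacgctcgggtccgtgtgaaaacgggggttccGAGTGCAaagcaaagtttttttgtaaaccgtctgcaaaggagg
The Mt2 stretch held 3 matches, and those of Mt1 and Slc30a1 held 1 each. Counts hold for the table's start alone and do not compare the genes' full upstream regions. Of 32851 stretches of the same length in the table, 21.41% held at least 1 match and 1.263% held 3 or more. A match is a description of the letters and not of a bound site. The palindrome TTCNNNGAA, a form of site bound by STAT factors, had no match in the 3 stretches and at least 1 in 7.02% of all.

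The deposited values are signals on a linear scale, scaled by the authors to nearly the same trimmed mean on each array, and median signals per array lay between 97.2 and 118. Arrays 3 and 4 of the Akt1 transgenic group stood apart, with top signals of 42426 and 43273, against 27779.5 to 35450.1 on the other 9 arrays. The liver marker Alb, which encodes albumin, had signals of 30532 and 31651 on these 2 arrays and of 20218.5 to 24255.5 on the others. Of 8 hepatocyte markers 7 were measured, all above the limit for dim probe sets (a signal of about 53.0, the lowest 40% by mean log2 signal). All 5 skeletal muscle markers, Acta1, Ckm, Myh4, Tnnt3 and Mylpf, and all 7 measured neutrophil markers lay under that limit. All 7 probe sets of the members lay above it, and the brightest of each gene entered the test, a limma fit of 7924 genes on log2 signals with Benjamini-Hochberg adjustment. The p-values measure the spread between these 11 livers.

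**Figure D1:**
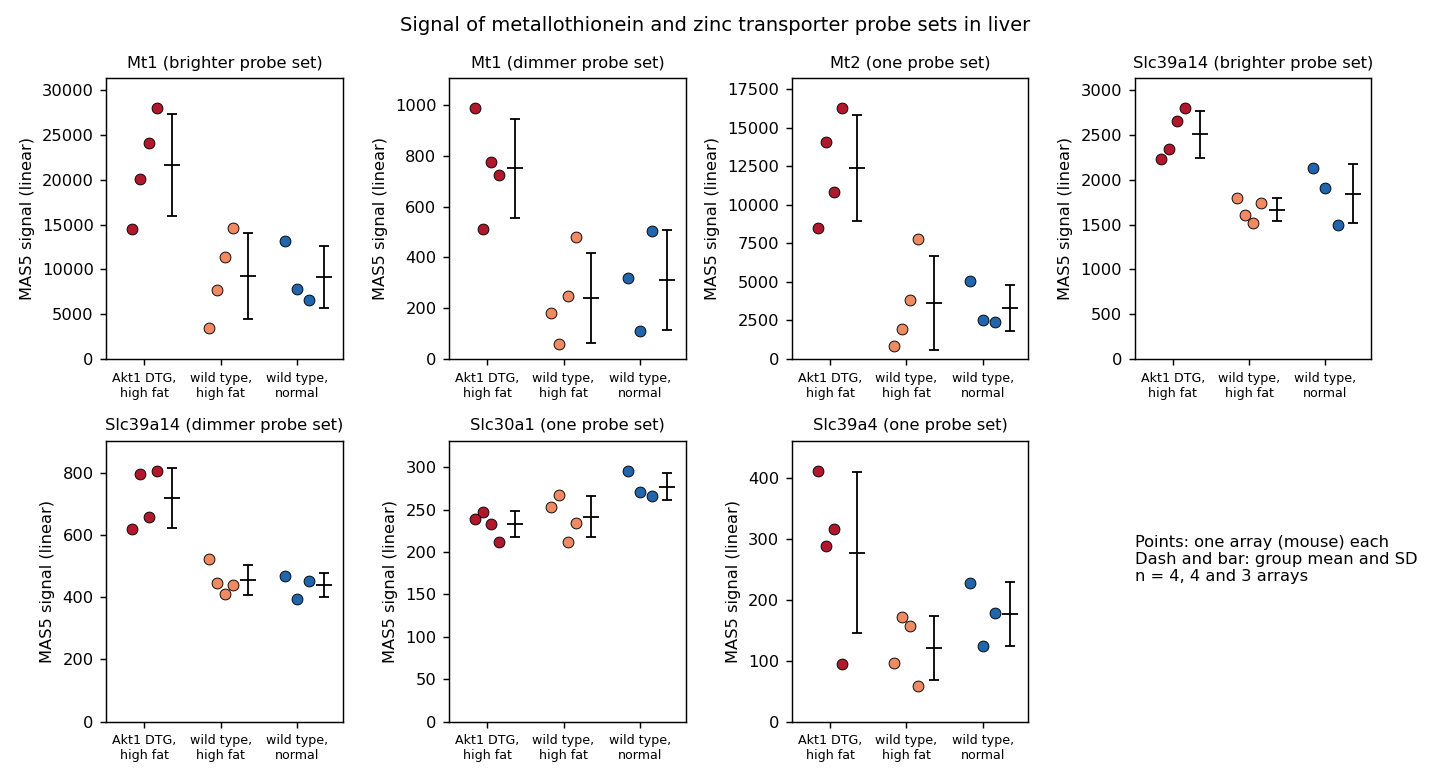
MAS5 signal (linear, vertical axis) of each of the 7 member probe sets in Akt1 transgenic livers on high fat (left, n = 4), wild-type livers on high fat (middle, n = 4) and wild-type livers on the normal diet (right, n = 3). Points are single arrays, and the dash and bar beside them the mean and SD. All 4 Akt1 transgenic points lie above every wild-type point for Mt2, the dimmer Mt1 probe set and both Slc39a14 probe sets.

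The Akt1 comparison asks how livers of Akt1 transgenic mice, marked by muscle hypertrophy, differ from wild-type livers under the same high-fat diet. Muscle growth and other effects of the genotype cannot be told apart in it. Mean log2 signals were higher in Akt1 transgenic livers by 2.18 for Mt2 (4.52-fold), 1.37 for Mt1 (2.59-fold), 1.14 for Slc39a4, with wide scatter, and 0.59 for Slc39a14, and Slc30a1 differed by -0.051. None of the 5 passed an adjusted p of 0.05 over all genes in limma's test, where 29 genes (0.366%) did, 0.227% of all genes with higher and 0.139% with lower signals. An unadjusted p under 0.05 was reached by 4 of the 5, all higher, against 13.7% of all genes (6.95% higher). For Mt2 and Slc39a14, 2 of the 5, every transgenic array exceeded every wild-type high-fat array. Such a separation was seen for 8.4% of all genes, upward for 4.32% and downward for 4.09%. Because these members were chosen with earlier results of these data known, the shares are descriptions. The median log2 difference was 1.14 over the 5 members and 0.0010 over all genes. In whole liver, a change in the number of cells of a type and a change in RNA per cell cannot be told apart.

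Mt2 had signals of 8473.5, 14083, 10835 and 16242 in the 4 Akt1 transgenic livers. In wild-type high-fat livers it had 870.2, 1929, 3834 and 7796. Every Akt1 transgenic liver lay above every wild-type high-fat liver, although the lowest transgenic signal, 8473.5, was close to the highest wild-type one, 7796. The means were 12408 ± 3438 in Akt1 transgenic livers and 3607 ± 3049.8 in wild-type high-fat livers (SD, n = 4 each). The log2 difference was 2.18 ± 0.53 (SE), with a 95% interval of 1.02 to 3.34 and a limma adjusted p of 0.106. It was the 10th largest positive difference among 7924 genes. An exact two-sided permutation test of this single gene gave p = 0.0286, the smallest that 4 arrays against 4 allow.

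Mt1, at its brighter probe set, had signals of 14544, 20063, 24086 and 27966 in Akt1 transgenic livers. In wild-type high-fat livers it had 3417, 7670.3, 11400.3 and 14582. The groups overlapped narrowly, since wild-type high-fat array 4 lay just above Akt1 transgenic array 1, and 15 of the 16 pairs of arrays had the higher signal in the transgenic liver. The means were 21664.5 ± 5739.9 in Akt1 transgenic livers and 9268 ± 4816 in wild-type high-fat livers (SD, n = 4 each), and the log2 difference was 1.37 ± 0.39 (SE; 95% interval 0.53 to 2.22; limma adjusted p = 0.153; exact permutation p = 0.0571). This probe set carries the suffix by which the manufacturer marks probes that match more than one transcript, so signal from a related transcript is not told apart. The dimmer Mt1 probe set had 986, 514, 775 and 726 in Akt1 transgenic livers and 179.8, 58.1, 246 and 479 in wild-type high-fat livers, without overlap. In a fit of all 20380 probe sets with 1 symbol its log2 difference was 1.96 ± 0.55 (SE, limma adjusted p = 0.201).

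The brightest Mt1 signals, 24086 and 27966, fell on Akt1 transgenic arrays 3 and 4, which also had the highest top signals and Alb signals. After quantile normalization, which gives all arrays the same distribution, the Mt1 log2 difference was 1.25 (adjusted p = 0.187) and that of Mt2 was 2.12 (adjusted p = 0.114). Without these 2 arrays it was 1.07 for Mt1 (limma adjusted p = 0.496) and 2.04 for Mt2 (limma adjusted p = 0.386). Wild-type high-fat array 1 had the lowest Mt1 and Mt2 signals of all 11 arrays, and without it the differences were 0.96 for Mt1 and 1.64 for Mt2. Without wild-type high-fat array 4 they were 1.66 and 2.69.

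Slc39a14, the zinc importer, had signals of 2233, 2348, 2652 and 2795 at its brighter probe set in Akt1 transgenic livers, against 1791, 1609, 1518 and 1745 in wild-type high-fat livers. The 2 groups were separated by a gap wider than the spread within wild-type high-fat livers. Normal-diet wild types spread more widely, from 1490.3 to 2135, nearer to the lowest transgenic signal. The means were 2507 ± 261 in Akt1 transgenic livers and 1666 ± 125 in wild-type high-fat livers (SD, n = 4 each). The log2 difference of 0.59 ± 0.12 (SE; 95% interval 0.32 to 0.85) had a limma adjusted p of 0.0683 and an exact permutation p of 0.0286. By p it stood 50th among 7924 genes, the best placed of the 5 members. The adjusted p ranged from 0.0476 to 0.341 over the alternatives, and it was under 0.05 in 2 of them, at 0.0485 with array weights and 0.0476 without normal-diet array 3. The 2 highest signals fell on Akt1 transgenic arrays 3 and 4. Without these arrays the log2 difference was 0.46, the smallest over the alternatives. The dimmer probe set had 618, 794.5, 656 and 805 in Akt1 transgenic livers and 524, 446, 409.9 and 440.5 in wild-type high-fat livers. It too was without overlap, and its log2 difference was 0.65 ± 0.12 (SE, limma adjusted p = 0.0604 in the fit of all probe sets). Both probe sets therefore gave nearly the same difference.

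Slc30a1, the exporter, had signals of 239, 247, 233 and 211.5 in Akt1 transgenic livers and of 253.5, 267, 212 and 234 in wild-type high-fat livers. These ranges lay almost on top of each other. The means were 233 ± 15.3 and 241 ± 24.0 (SD, n = 4 each) in Akt1 transgenic and in wild-type high-fat livers, and the log2 difference was -0.051 ± 0.12 (SE; limma adjusted p = 0.887). The 95% interval of -0.31 to 0.21 holds 0 and leaves room for a modest difference in either direction. Without Akt1 transgenic arrays 3 and 4 the difference was 0.015.

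Slc39a4, dimmer than the others, had signals of 411, 287, 316 and 95.2 in Akt1 transgenic livers and of 95.5, 171.5, 157 and 59.1 in wild-type high-fat livers. Akt1 transgenic arrays 1, 2 and 3 lay above all wild-type high-fat arrays, and array 4 lay among them. The means were 277 ± 132 and 121 ± 52.8 (SD, n = 4 each) in Akt1 transgenic and in wild-type high-fat livers, and the log2 difference was 1.14 ± 0.45 (SE; limma adjusted p = 0.286; exact permutation p = 0.114). It was 1.59 without Akt1 transgenic array 4 and 0.83 without wild-type high-fat array 4. Of the intestinal markers Vil1 and Cdx1 were under the dim limit. The sum of the 4 measured intestinal markers was 3303 to 6379.5 in Akt1 transgenic livers and 4419.8 to 5157 in wild-type high-fat livers, so the groups overlapped. Nearly all of this sum was Fabp2, at 3149.8 to 6093 and at 4234 to 4991 in these groups, so it mainly describes that gene.

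**Figure D2:**
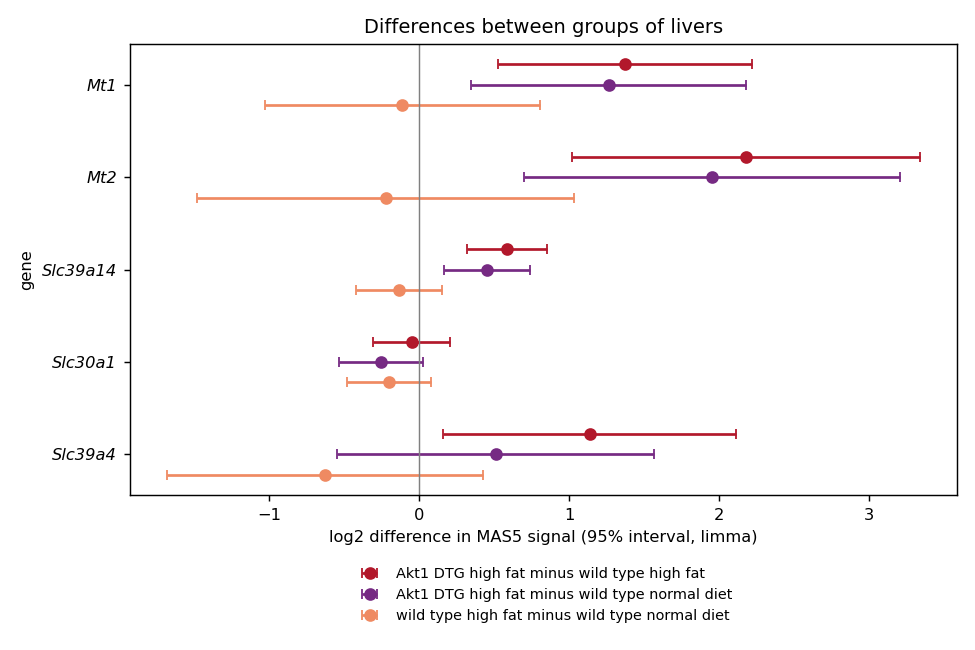
log2 difference in MAS5 signal (horizontal axis) with its 95% interval from limma for each member gene (rows), in the Akt1, transgenic against normal diet, and diet comparisons (colours). The intervals of Mt1, Mt2, Slc39a14 and Slc39a4 lie above 0 in the Akt1 comparison, and all 5 diet intervals hold 0.

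The diet comparison asks what high-fat feeding does to the liver of wild-type mice. None of the 5 members differed between wild-type high-fat and normal-diet livers beyond the spread between mice. In limma's test 0 of the 5 passed an adjusted p of 0.05, and 0 of 7924 genes (0%) did. At an unadjusted p under 0.05 there were 0 of the 5 against 7.02% of all genes (3.92% higher). The groups overlapped for all 5 members, and were separate for 7.91% of all genes (4.58% higher, 3.33% lower). All 5 differences lay below 0, with a median of -0.20 against 0.0067 over all genes.

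Mt1 had 3417, 7670.3, 11400.3 and 14582 in wild-type high-fat livers and 13129.8, 7762 and 6636 in normal-diet livers. The high-fat signals ran from below the lowest to above the highest normal-diet one, a 4.27-fold span against 1.98-fold in normal-diet livers. The means were 9268 ± 4816 (SD, n = 4) on the high-fat diet and 9176 ± 3470.1 (SD, n = 3) on the normal diet, with a log2 difference of -0.11 ± 0.42 (SE; 95% interval -1.03 to 0.80). Mt2 spanned 8.96-fold in wild-type high-fat livers and 2.12-fold in normal-diet livers, where it had 5029, 2524 and 2369.9. Its log2 difference was -0.22 ± 0.58 (SE; 95% interval -1.48 to 1.03). Both signs turned without a single array: without wild-type high-fat array 1 the difference was 0.30 for Mt1 and 0.31 for Mt2, and without normal-diet array 1 it was 0.18 and 0.12. A change of either metallothionein with diet by less than about these intervals was not detectable with 4 and 3 arrays.

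Slc39a14 had 1791, 1609, 1518 and 1745 in wild-type high-fat livers and 2135, 1906 and 1490.3 in normal-diet livers at its brighter probe set. Its log2 difference for diet was -0.13 ± 0.13 (SE), and at the dimmer probe set, with 468.5, 395 and 452 in normal-diet livers, it was 0.051 ± 0.13 in the fit of all probe sets. The sign thus differed between the 2 probe sets. Slc30a1 had 295, 270.4 and 266 in normal-diet livers, and its log2 difference was -0.20 ± 0.13 (SE; 95% interval -0.48 to 0.077; limma adjusted p = 0.807). Here 3 of the 4 high-fat livers lay below all normal-diet livers, and array 2, at 267, lay just above the lowest of them. Slc39a4 had 228, 124 and 179 in normal-diet livers, and its log2 difference was -0.63 ± 0.48 (SE; limma adjusted p = 0.857).

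Akt1 transgenic livers on high fat were also set against normal-diet wild-type livers, a comparison that shares arrays with both of the others and mixes diet with genotype. Of the 5 members 0 passed, against 165 of 7924 genes (2.08%; 1.4% higher and 0.681% lower) in limma's test. An unadjusted p under 0.05 was reached by 3 of the 5, all higher, against 18.3% of all genes (9.96% higher). The groups were separate for 4 of the 5, against 15.6% of all genes (8.46% higher, 7.1% lower). These were Mt1, Mt2 and Slc39a14 with higher signals and Slc30a1 with lower signals in Akt1 transgenic livers. The log2 difference was 1.95 ± 0.58 for Mt2 (SE; limma adjusted p = 0.106, and 0.0243 to 0.302 over the alternatives). It was 1.26 ± 0.42 for Mt1 (limma adjusted p = 0.144) and 0.45 ± 0.13 for the brighter Slc39a14 probe set (limma adjusted p = 0.101). For Mt2 it passed with only these 2 groups in the fit. The dimmer Slc39a14 probe set had a log2 difference of 0.71 ± 0.13 (SE) and a limma adjusted p of 0.0281 in the fit of all probe sets. In that fit the dimmer Mt1 probe set, without overlap, had 1.48 ± 0.60 (SE, limma adjusted p = 0.295). Slc39a4 had 0.51 ± 0.48 (SE, limma adjusted p = 0.619) in the main fit. Its groups overlapped, with Akt1 transgenic array 4, at 95.2, below all normal-diet arrays. For Slc30a1, with means of 233 ± 15.3 (SD, n = 4) in Akt1 transgenic livers and 277 ± 15.9 (SD, n = 3) in normal-diet livers, the log2 difference was -0.25 ± 0.13 (SE; limma adjusted p = 0.319). An exact permutation test of 4 arrays against 3 cannot give a two-sided p below 0.0571, which Mt1, Mt2, Slc39a14 and Slc30a1 each had.

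The tested probe sets of Mt1 and Mt2 moved together from liver to liver, whereas the dimmer Mt1 probe set followed them less closely. Over the 11 arrays the log2 signals of the tested probe sets had a Pearson r of 0.977 (permutation p = 2e-05, the smallest that 100000 resamples can give; 0.00012 adjusted over 6 relations) and a Spearman rho of 0.973 (permutation p = 2e-05). Without wild-type high-fat array 1 and Akt1 transgenic array 4, the 2 arrays farthest from the Mt1 median, r was 0.954. On deviations from the group means, which take the group differences away, r was 0.948 (permutation p = 6e-05) and rho 0.964 (permutation p = 4e-05), and r was 0.888 without wild-type high-fat arrays 1 and 4. The dimmer Mt1 probe set, a setting added after seeing the data, had r = 0.740 with Mt2 over the arrays (rho 0.791; permutation p = 0.014 and 0.0058, adjusted 0.027 and 0.012), and r = 0.764 without arrays 2 of both wild-type groups. On deviations from group means it had r = 0.419 with Mt2 (rho 0.355; permutation p = 0.2 and 0.29, adjusted 0.25 and 0.34). With the tested Mt1 probe set it had r = 0.650 over the arrays (rho 0.709; permutation p = 0.04 and 0.019, adjusted 0.06 and 0.029) and r = 0.261 on deviations (rho 0.291; permutation p = 0.44 and 0.39). Within their groups it was highest on Akt1 transgenic array 1 and normal-diet array 3, where the tested Mt1 probe set was lowest of its group. Among wild-type high-fat livers array 4 was highest at both Mt1 probe sets. A spread within groups that Mt1 and Mt2 share was thus seen at the tested Mt1 probe set, whose probes match more than one transcript, and the dimmer probe set did not pass the test for it. Slc39a14 followed the metallothioneins less closely, with r = 0.746 to their mean profile over the 11 arrays and 0.254 on deviations from group means. For Slc39a4 these values were 0.285 and -0.267, and for Slc30a1 -0.489 and -0.380.

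**Figure D3:**
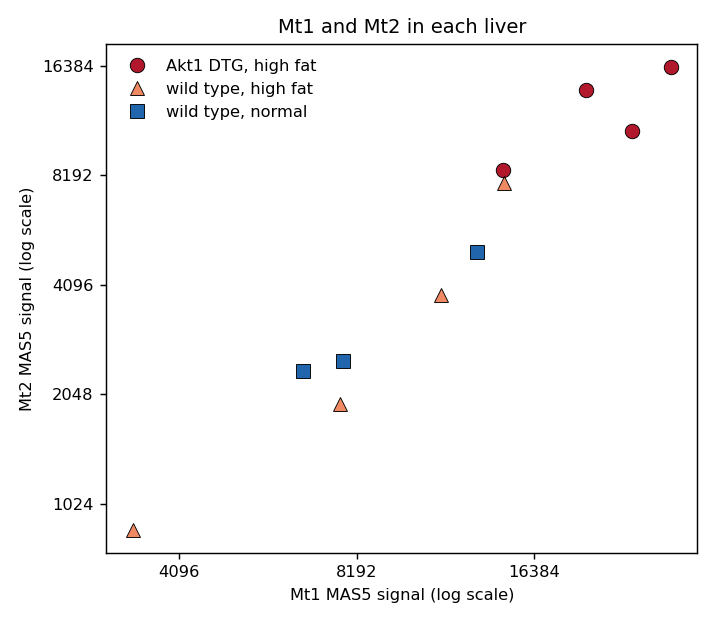
Mt2 signal (vertical, log scale) against Mt1 signal (horizontal, log scale) at the tested probe sets, 1 point per liver, for Akt1 transgenic high-fat, wild-type high-fat and normal-diet mice. The 11 points follow one line, from wild-type high-fat array 1 at 3417 and 870.2 to Akt1 transgenic array 4 at 27966 and 16242.

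The genes most like the tested metallothionein probe sets were taken as those of highest Pearson r with the mean of the Mt1 and Mt2 z scores over the 11 arrays. They were Minpp1, an inositol polyphosphate phosphatase (r = 0.967), Ext1, a heparan sulfate polymerase (0.934), Chpf2, a chondroitin-polymerizing factor (0.925), Retreg1, a receptor for the autophagy of endoplasmic reticulum (0.923), Tmem161a (0.915) and Serpina3n, a secreted serine protease inhibitor (0.909). Minpp1 had signals of 1306, 1337, 1374 and 1505 in Akt1 transgenic livers, 891, 986, 1180 and 1272 in wild-type high-fat livers and 1317, 1012 and 975 in normal-diet livers. On deviations from group means the highest r belonged to Esrrg, an orphan nuclear receptor (0.941), Tmem161a (0.938), Minpp1 (0.935), Mapkbp1 (0.926), Mmab, an enzyme of cobalamin metabolism (0.921), and Slc30a3, the zinc transporter ZnT3 (0.919). Minpp1 and Tmem161a were in both lists. All points share the same 11 arrays, and these genes were picked as the highest of 7924, so r is given as a description.

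**Figure D4:**
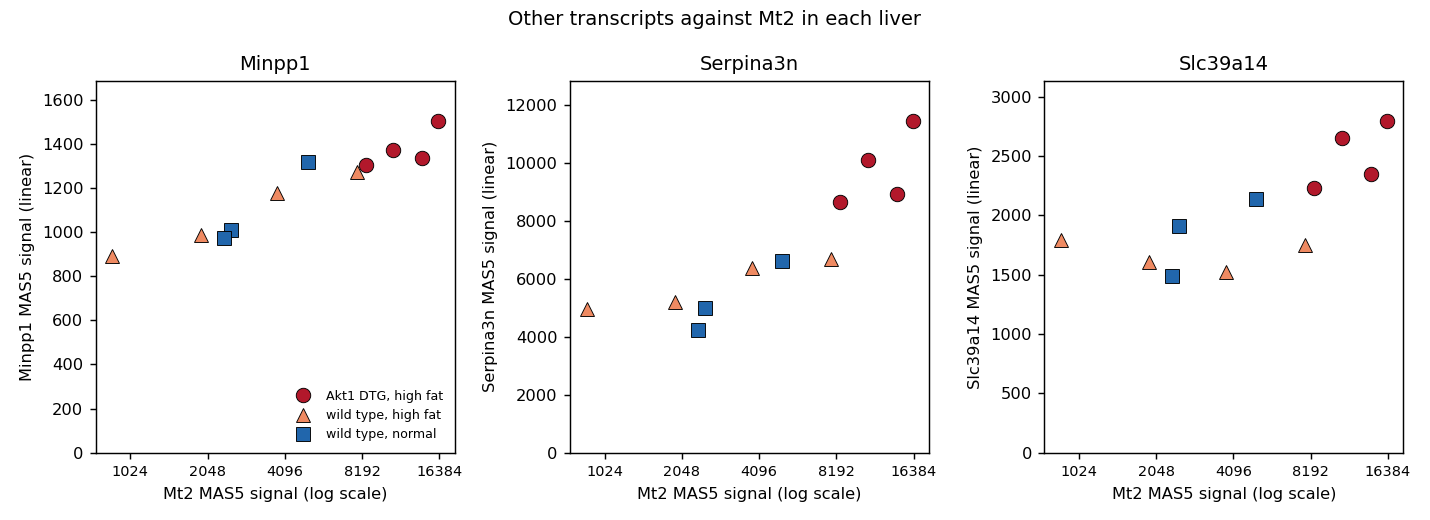
Signal of Minpp1, Serpina3n and Slc39a14 (vertical, linear) against Mt2 signal (horizontal, log scale), 1 point per liver in the 3 groups. Minpp1 and Serpina3n follow Mt2 within and between groups, whereas Slc39a14 at a given Mt2 signal is scattered among the wild-type livers.

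No other zinc transporter measured passed the test in any comparison. Of 12 further ZIP importers, 8 were measured and 0 passed in any of the 3 comparisons by limma. For Akt1 transgenic against wild-type high-fat livers their median log2 difference was 0.084, with a range from -0.056 to 0.40 at Slc39a6, and 0 had an unadjusted p under 0.05. For diet the median was -0.13, and Slc39a8, which encodes ZIP8, the closest relative of ZIP14, had -0.57 ± 0.17 (SE, limma adjusted p = 0.593), the 1 gene with an unadjusted p under 0.05. Against normal-diet livers Akt1 transgenic livers had -0.44 ± 0.17 at Slc39a8 (SE, limma adjusted p = 0.199). Slc39a8 had 447, 411, 465 and 442 in Akt1 transgenic livers, 473, 329.5, 410.5 and 411 in wild-type high-fat livers and 459, 609 and 761.6 in normal-diet livers. Of 9 further ZnT transporters, 6 were tested and 0 passed in any comparison. Their median was 0.077 for Akt1 transgenic against wild-type high-fat livers, and the smallest p belonged to Slc30a9 at -0.32 ± 0.16 (SE, adjusted p = 0.415). Slc30a4 had -0.35 ± 0.18 for diet and -0.53 ± 0.18 for Akt1 transgenic against normal-diet livers (SE, limma adjusted p = 0.762 and 0.156). In the latter comparison 2 of the 6 were higher and 2 lower at an unadjusted p under 0.05, against 18.3% of all genes. The 2 higher ones were Slc30a5 at 0.27 ± 0.11 and Slc30a6 at 0.35 ± 0.13 (SE, limma adjusted p = 0.223 and 0.175). Both were separate with higher signals, against 8.46% of all genes. In the other 2 comparisons 0 reached an unadjusted p under 0.05. The remaining metallothioneins Mt3 and Mt4, known from brain and from stratified epithelia, were too dim to enter the test. Mt3 had signals of 7.8 to 58.6 in Akt1 transgenic, 4.8 to 73.2 in wild-type high-fat and 22.8 to 109.8 in normal-diet livers. Mt4 had 4.6, 37.8, 27.2 and 19.9 in Akt1 transgenic, 1.4 to 6.2 in wild-type high-fat and 2.6 to 5 in normal-diet livers. All these Mt4 signals lay under the dim limit, and the difference was not tested.

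Metal sensing genes and MTF1 targets other than the members, 7 genes with Mtf1 itself among them, had a median log2 difference of -0.10 in Akt1 transgenic against wild-type high-fat livers, and 0 passed. Mtf1 had 171, 86.8, 123 and 117 in Akt1 transgenic livers and 125, 145, 144 and 107.5 in wild-type high-fat livers, with overlapping ranges. The gene of smallest p in this list was Csrp1 for the Akt1 comparison (0.50 ± 0.39) and Ndrg1 for diet (-0.70 ± 0.36) and for Akt1 transgenic against normal-diet livers (-1.03 ± 0.36; limma adjusted p = 0.156). Of 12 copper handling genes, 0 passed for Akt1 transgenic against wild-type high-fat livers, where the smallest p belonged to Cp, the copper-carrying plasma protein ceruloplasmin (0.36 ± 0.10, adjusted p = 0.169). Against normal-diet livers 1 rose and 1 fell by limma. Steap4, a metalloreductase, rose by 1.15 ± 0.20 (SE, adjusted p = 0.0157), with signals of 2099.7, 3248, 1952 and 2367 in Akt1 transgenic livers and 930.3, 1214 and 1081 in normal-diet livers. For diet Steap4 had 0.63 ± 0.20 (SE, limma adjusted p = 0.606), with 1638, 2222, 1353 and 1538.5 in wild-type high-fat livers, all above the normal-diet ones. Sod1, the copper and zinc superoxide dismutase, fell by 0.62 on the log2 scale (SE 0.14, adjusted p = 0.0468), with 4818, 3594, 3577 and 4032 in Akt1 transgenic livers and 6274, 5819.8 and 6219.5 in normal-diet livers.

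Interleukin-6 and glucocorticoids, signals known to induce metallothioneins, were followed through their response genes. Of 23 genes of the interleukin-6 and STAT3 response, 4 rose in Akt1 transgenic against wild-type high-fat livers (Saa1, Orm1, Itih3 and Il1rn), where 0.366% of all genes passed, and 0 fell. Against normal-diet livers, where 2.08% of all genes passed, 12 rose, namely Stat3, Socs3, Saa1, Saa2, Orm1, Orm2, Itih3, Itih4, Serpina3n, Il1rn, Apcs and Lcn2, most of them acute phase plasma proteins. At an unadjusted p under 0.05 there were 17 of the 23, all higher, in the Akt1 comparison, against 6.95% of all genes higher. The smallest p in both comparisons belonged to Itih3, a heavy chain of the inter-alpha-trypsin inhibitors, with 0.65 ± 0.089 and, against normal diet, 1.01 ± 0.096 (SE, limma adjusted p = 0.0250 and 0.00118). The median log2 difference was 0.66, against 0.0010 over all genes, for the Akt1 comparison and 0.17, against 0.0067, for diet. For diet 0 of the 23 passed by limma, 5 had an unadjusted p under 0.05, all higher, against 3.92% of all genes, and 6 were separate with higher signals, against 4.58%. The smallest p for diet belonged to Lcn2, the iron-siderophore-binding lipocalin, with 2.97 ± 0.62 (SE, limma adjusted p = 0.355), and Saa1 had 1.82 ± 0.40 (adjusted p = 0.364), both without overlap. Stat3, the transcription factor, rose by 1.02 ± 0.15 and its feedback inhibitor Socs3 by 2.40 ± 0.52 against normal-diet livers (SE, limma adjusted p = 0.00928 and 0.0413). Serpina3n had 8649, 8926, 10095.8 and 11449 in Akt1 transgenic livers and 4961, 5215, 6373 and 6699.6 in wild-type high-fat livers, and its log2 difference of 0.75 ± 0.15 (SE) had an adjusted p of 0.0608. That these acute phase genes were higher was known from the same arrays when the list was drawn up, so it is no independent evidence. Of 11 glucocorticoid response genes 0 passed in any comparison by limma. Their median was 0.32 for the Akt1 comparison and -0.13 for diet, and the smallest p belonged to Pck1, an enzyme of gluconeogenesis, for the Akt1 comparison (0.44 ± 0.17, adjusted p = 0.283) and to Fkbp5, a cochaperone of the glucocorticoid receptor, for diet (-0.87 ± 0.37, adjusted p = 0.682). Tat, an aminotransferase induced by glucocorticoids, had 1.03 ± 0.24 against normal-diet livers (limma adjusted p = 0.0530). Others of this list went the other way there, Dusp1 at -1.09 ± 0.38 and Nr3c1 at -0.53 ± 0.16 (SE, limma adjusted p = 0.161 and 0.110). At an unadjusted p under 0.05, 2 of the 11 were higher and 2 lower against normal-diet livers, where 18.3% of all genes reached it. In the Akt1 comparison 2 were higher and 1 lower, against 13.7% of all genes. There 2 were separate with higher signals, against 4.32%, and 0 with lower signals, against 4.09%. Over all 6 lists with measured genes, 4 genes passed for the Akt1 comparison and 14 against normal-diet livers, and without Akt1 transgenic arrays 3 and 4 there were 0 and 4.

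**Figure D5:**
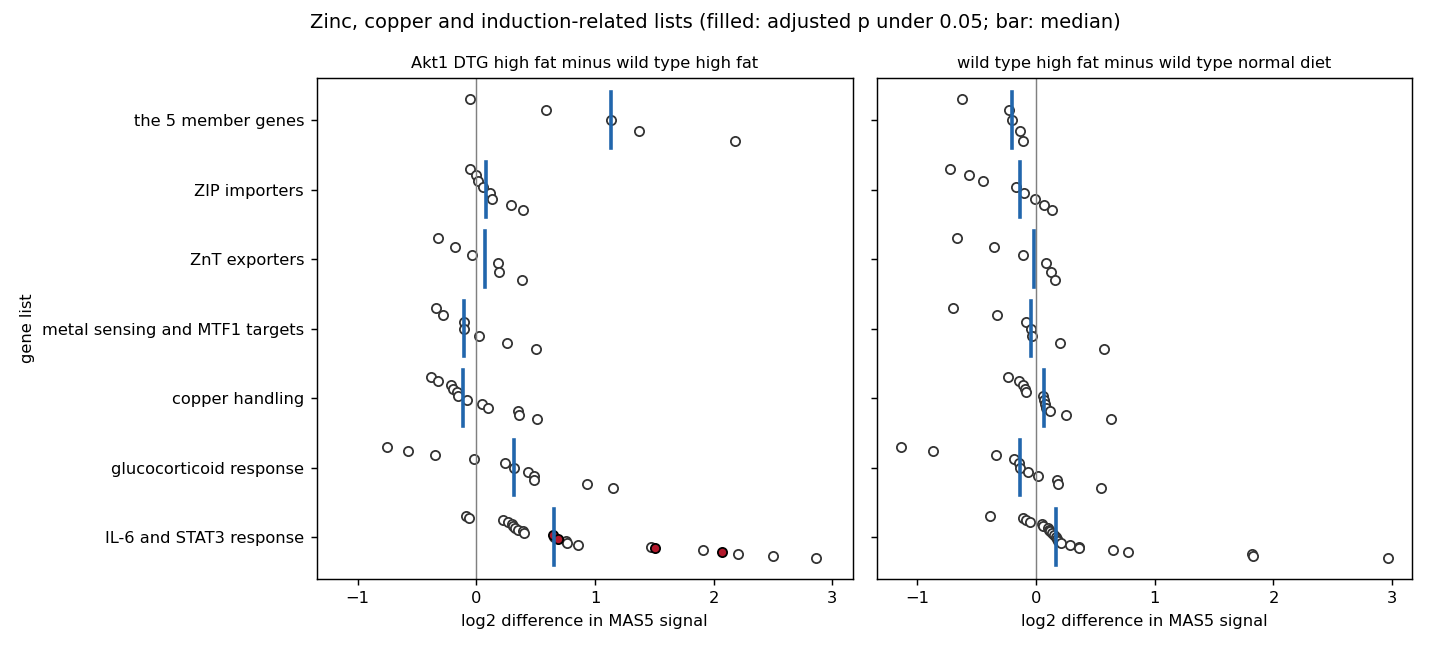
log2 difference in MAS5 signal (horizontal axis) of the member genes and of each gene in 6 lists (rows), for Akt1 transgenic against wild-type high-fat livers (left) and wild-type high-fat against normal-diet livers (right). Filled points passed an adjusted p of 0.05, and the blue bar is the list's median. The members' median lies at 1.14 on the left and -0.20 on the right, and filled points appear in the interleukin-6 and STAT3 list on the left alone.

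Kupffer cell and hepatocyte markers, like Mt1, Mt2 and Slc39a14, had their highest group median in Akt1 transgenic livers. Neutrophil, bile duct and skeletal muscle sums did too, with all measured markers under the dim limit. Endothelial, stellate, pancreatic acinar, intestinal and erythroid sums did not. Hepatocyte sums were 127147 to 179134 in Akt1 transgenic livers (median 154002) and 126161 to 136661 in wild-type high-fat livers (130454). These ranges overlapped. In normal-diet livers the sums were 110968 to 124723 (122923). All 7 measured hepatocyte markers had log2 differences above 0 in the Akt1 comparison. Of them 0 passed by limma and 0 had an unadjusted p under 0.05. Each had its 2 highest signals of the 11 arrays on Akt1 transgenic arrays 3 and 4, which stood apart in top signal. The sum of the 7 measured Kupffer cell markers was 3947.6 to 11007 in Akt1 transgenic livers (median 7358), 3325.6 to 7256 in wild-type high-fat livers (4982) and 2325 to 4405 in normal-diet livers (3117). Marco was under the dim limit, and the sums of the groups overlapped. Of 6 tested Kupffer cell markers, 5 had log2 differences above 0 in the Akt1 comparison (median 0.46; 0 passed by limma and 0 had an unadjusted p under 0.05). For diet 6 had so (median 0.57; 0 passed, 1 at an unadjusted p, against 3.92% of all genes higher). For Akt1 transgenic against normal-diet livers all 6 lay above 0 with a median of 1.03. An unadjusted p under 0.05 was reached by 5, against 9.96% of all genes higher, and 2 were separate with higher signals, against 8.46%. In this comparison 1 rose, Cd5l, a secreted macrophage protein, by 2.02 ± 0.46 (SE, limma adjusted p = 0.0456), where 1.4% of all genes rose. The part of Kupffer cells or hepatocytes in the metallothionein and Slc39a14 values was not tested. The 7 measured neutrophil markers summed to 199 to 433 in Akt1 transgenic livers, 161 to 261 in wild-type high-fat livers and 118 to 205 in normal-diet livers, and all lay under the limit. The pancreatic acinar markers, of which 5 were measured and Cpa1 and Ctrb1 lay under the limit, summed to 745 to 2474 in Akt1 transgenic livers and 1392 to 2676 in wild-type high-fat livers.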

How the data were processed

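Total liver RNA of 11 mice was labelled with biotin from a poly-dT primer, per the labels' protocols, and hybridised to one oligonucleotide array each. The authors deposited one intensity value per probe set on a linear scale, the MAS5 signal named in the submitters' processing notes without a version. MAS5 scales each array alone, and means trimmed by 2% at both ends lay between 499 and 499.9. Detection calls were not used here. Symbols came from the platform annotation, and 20380 probe sets had 1 symbol, 691 several, 1555 none, and 64 were controls. No probe set with several symbols held a member. Of those with 1 symbol, 20351 were found by Entrez identifier in RefSeq's gene table and 0 symbols changed.

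Values under 1 were set to 1 before log2, the lowest 40% of probe sets were left out, and the brightest probe set stood for a gene. Limma 3.58.1 in R 4.3.3 (lmFit, eBayes with an intensity trend) was fitted to 7924 genes with all 11 arrays and one mean per group, two-sided. On simulated data over 7924 genes, of 100 genes changed 2-fold 66% were recovered for the Akt1 comparison and 70% for diet, with 0 calls in unchanged data. Beside the changed genes, 5 unchanged ones were called for the Akt1 comparison and 9 for diet. The simulation drew each gene independently. Its shares are averages over genes and do not give the power for a member. The members and lists were chosen with earlier results of these data known. Named outside the members were list genes past the threshold, the gene of smallest p in each list and comparison, and the 6 genes of highest likeness. Examples beyond this rule were chosen after their values were seen. They were Alb, Mtf1, Serpina3n, Saa1, Dusp1, Nr3c1, Slc30a5, Slc30a6 and Fabp2 values, Slc39a8 per array, Mt3, Mt4 and Cd5l. The alternatives tried were a 60% filter or none, a pseudocount of 32, quantile normalization, a fit without a trend, array weights, a fit of the compared groups only, a replicate block, and omission of arrays. Precision is limited by how few arrays each group has.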

Additional observations from a re-analysis of the deposited data

How the results depend on the processing

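All member differences for the Akt1 comparison and for Akt1 transgenic against normal-diet livers kept their direction under every alternative run, except that of Slc30a1 in the Akt1 comparison, which was 0.015 without Akt1 transgenic arrays 3 and 4. Its cause was not tested. Calls over all genes moved much more. In the Akt1 comparison there were 29, and 0 without an intensity trend, 58 with array weights, 8 with only these groups in the fit, 4 without Akt1 transgenic arrays 3 and 4, and 0 (without wild-type high-fat array 1) to 64 (without wild-type high-fat array 2) leaving out single arrays. Against normal-diet livers there were 165, and 81 without a trend, 104 with only these groups, 23 without Akt1 transgenic arrays 3 and 4, and 36 (without Akt1 transgenic array 4) to 199 (without wild-type high-fat array 2) leaving out single arrays. For diet there were 0, and 1 with array weights, 2 with the replicate block and 0 to 2 leaving out single arrays.

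Among the lists, the 4 calls of the Akt1 comparison became 1 without a filter, 0 without a trend, 7 with array weights, 1 with only these groups, 0 without Akt1 transgenic arrays 3 and 4, and 0 to 7 leaving out single arrays. The 14 against normal-diet livers became 9 without a trend, 4 without Akt1 transgenic arrays 3 and 4, and 5 to 16 leaving out single arrays. Of the members' tested probe sets, those past the threshold only under an alternative were Slc39a14 in the Akt1 comparison with array weights (0.57) and without normal-diet array 3 (0.53 to 0.64 leaving out single arrays), and Mt2 against normal-diet livers with only these groups (1.95). The dimmer Slc39a14 probe set, tested only in the fit of all probe sets, passed there against normal-diet livers (0.71). For diet, leaving out single arrays gave -0.39 to 0.30 for Mt1 and -0.74 to 0.31 for Mt2. With the 60% filter Slc39a4 was not tested.

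The labels number the arrays within groups without saying that a number is shared. Same-numbered arrays had correlations of their deviations from group means of 0.0842 to 0.292 in the Akt1 comparison, where all 8 arrays correlated best with their own number, and of -0.0721 to 0.0287 for diet. With the replicate number as a block, the Akt1 differences were as before (adjusted p = 0.0845 for Mt2 and Slc39a14, 0.123 for Mt1 and 0.117 for Slc39a4), and those against normal-diet livers were 1.62 for Mt2 and 1.05 for Mt1. The block changed no call of a member. Detection calls were not used here, so background was not assessed for each array.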

Other observations

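Likeness to the profile of the tested Mt1 and Mt2 probe sets is given list by list. Of 23 genes of the interleukin-6 and STAT3 response, 22 had a Pearson r above 0 with the mean Mt1 and Mt2 profile over the 11 arrays, with a median of 0.679, against 0.012 over all 7924 genes. On deviations from group means the median was 0.267, against 0.0196 over all genes, and 20 of the 23 lay above 0. Of all 7924 genes, 4045 lay above 0 over the arrays and 4121 on deviations. The exception among the 23 over the arrays was Hamp, which encodes the iron hormone hepcidin, at -0.642 (-0.607 on deviations). Of 11 glucocorticoid response genes 8 lay above 0 over the arrays (median 0.309) and 9 on deviations (median 0.297). Klf9, a transcription factor induced by glucocorticoids, was highest at 0.787 and 0.729, and Dusp1 lowest at -0.690 and -0.450. The 7 metal sensing genes and MTF1 targets had a median of -0.266 over the arrays, and the 8 further ZIP importers one of 0.0071. These values share the same 11 arrays and are given without a test, and Hamp, Klf9 and Dusp1 were named after their values were seen. The interleukin-6 and STAT3 list was drawn up with the higher signals of its acute phase genes on these arrays known.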
